A study of Mus musculus with 2 samples.

Results

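The cells described here are mouse bone marrow erythroblasts in which hemoglobin messages made up 15 to 40% of all transcripts. They were picked out of single-cell RNA-seq by 2 conditions. The cells were chosen by measured values, as follows. The UMIs (unique molecular identifiers, each counting 1 captured RNA molecule) of the 4 adult globin genes Hbb-bt, Hbb-bs, Hba-a1 and Hba-a2 had to be at least 15% and under 40% of a barcode's UMIs, and the barcode had to hold at least 3 UMIs of the erythroid genes Klf1, Ermap, Rhag, Hemgn and Cpox together. Barcodes with under 500 UMIs, or with over 20% of UMIs from mitochondrial genes, were not considered. This gave 1215 erythroblasts among the 33691 barcodes kept, 708 of 19764 in the WT library and 507 of 13927 in the DKO library. Those were 3.58% (exact Clopper-Pearson 95% interval 3.33 to 3.85) and 3.64% (3.34 to 3.96) of the barcodes kept. The 2 totals are not alike, since the deposited WT matrix lists every barcode and the DKO matrix only barcodes called as cells. Because hemoglobin and these 5 genes chose the cells, their levels are given below as a description only.

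The study asked what the helicase gene Ddx41 does in red cell formation and what part the DNA sensor cGAS takes in the effects of its loss. The WT library came from the femoral marrow of 1 control mouse, a Ddx41 fl/fl littermate without Cre and with wild-type cGas. The DKO library came from 1 VavCre:Ddx41 fl/fl, cGAS-/- mouse, so both mice carried the floxed Ddx41 alleles. Both were 2 months old. VavCre is a transgene that drives Cre in hematopoietic cells, with some expression described in endothelium and germ cells. Each genotype is thus 1 mouse and 1 library, made with a 3′ droplet method. No test between genotypes can be made on that, and every interval below covers counting error only. The WT mouse differs from the DKO mouse in both genes and in the VavCre transgene at once. Effects of the 2 genes, of the transgene, of the mouse and of the library therefore cannot be told apart.

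Erythroblasts are the nucleated precursors of red cells. As they mature, the transcription factors GATA1, KLF1 and TAL1 switch on globin, heme synthesis and membrane skeleton genes, the cells divide a last few times while they shrink, ribosomes are run down, and the nucleus is finally expelled. A rising share of hemoglobin message therefore follows the order of maturation, and a share between the extremes marks cells that still divide while they fill with hemoglobin. Interferon-stimulated genes are the genes that cells switch on through STAT2 and IRF9 once type I interferon has bound its receptor, and cGAS, which makes a second messenger when it meets DNA in the cytosol, is one of the sensors upstream of interferon production.

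The WT library held 135693452 UMIs over all its barcodes and the DKO library 117725934 over its called barcodes, since the deposited WT matrix lists every barcode and the DKO matrix only barcodes called as cells. WT erythroblasts had a median of 8298.5 UMIs and 2058 genes, and DKO erythroblasts 13553 UMIs and 2712 genes. Thinned to 3000 UMIs a cell, which left out 132 WT and 88 DKO cells, the medians were 1104.5 and 1121 genes. The mean hemoglobin share was 28.0% in WT and 28.4% in DKO cells. Outside the 4 globin genes, 4482539 WT and 4922901 DKO UMIs remained, and a level below is the number of UMIs of a gene per 1000000 of these. At the lower limit, 32 WT and 20 DKO barcodes with 14 to 15% lay just outside and 18 and 14 with 15 to 16% just inside. At the upper limit, 43 and 34 with 39 to 40% lay inside and 46 and 33 with 40 to 41% outside. A further 290 WT and 143 DKO barcodes had the hemoglobin share but under 3 UMIs of the 5 genes. Of the members, 96 WT and 68 DKO cells had under 2000 UMIs. No barcode sequence was shared by WT and DKO members, against 80 shared among all barcodes kept.

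Hemgn, Klf1, Cpox and Rhag helped to choose the cells, so their levels describe the cells and do not check the label. Hemgn, a nuclear regulator of erythroid genes, stood at a level of 1768 in WT and 1970.0 in DKO cells, and Klf1 at 419.9 and 475. Cpox, which makes protoporphyrinogen in the heme pathway, stood at 1040.3 and 1307, and Rhag, a membrane ammonium channel, at 663 and 807. Alad, an early heme enzyme that the choice of cells did not use, stood at 878 in WT and 842 in DKO cells. Slc4a1 (the band 3 anion exchanger) at 1922 and 2241, Tfrc (the transferrin receptor) at 812 and 1148, and Epor at 143 and 158 were chosen as further markers with their values known. The 13 erythroblast markers together reached a level of 16068 in WT and 17794 in DKO cells, against 3970.0 in WT droplets of 1 to 100 UMIs, which hold free RNA. That list holds the 5 genes that chose the cells. Free RNA could be measured in the WT library only, since only its matrix lists such droplets.

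The promoters of 2 of these markers are shown because GATA1, named for the letters it binds, is the factor most tied to erythroid genes. The sequences are from RefSeq, build GRCm38.p6, and run 5′ to 3′ in the direction of the gene from 250 bases before its start site to 50 after it, 300 bases in all. Capitals mark AGATAA or its reverse complement TTATCT. That motif was searched on both strands and lies in 11.2% of 32851 mouse promoters of this length (12.7% of 27025 genes), and in those of 2 of the 6 genes Hemgn, Klf1, Cpox, Alad, Ermap and Rhag (33.3%).
Hemgn, chr4:46404134-46404433, minus strand: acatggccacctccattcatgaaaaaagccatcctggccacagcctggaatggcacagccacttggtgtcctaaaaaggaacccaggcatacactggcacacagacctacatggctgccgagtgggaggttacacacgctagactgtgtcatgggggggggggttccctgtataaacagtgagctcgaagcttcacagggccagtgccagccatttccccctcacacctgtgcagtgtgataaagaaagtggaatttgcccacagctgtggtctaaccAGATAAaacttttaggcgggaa
Cpox, chr16:58669958-58670257, plus strand: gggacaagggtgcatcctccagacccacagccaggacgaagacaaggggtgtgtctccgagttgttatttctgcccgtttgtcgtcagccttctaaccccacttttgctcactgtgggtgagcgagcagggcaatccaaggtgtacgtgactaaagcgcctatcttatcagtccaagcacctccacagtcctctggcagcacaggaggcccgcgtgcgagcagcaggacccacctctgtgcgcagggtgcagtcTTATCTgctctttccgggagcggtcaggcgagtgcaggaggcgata
The Hemgn match begins 28 bases after the start site and the Cpox match 4 bases after it. A match of letters is not a binding site, and none was found in the windows of the other 4 genes.

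Ddx41, at chr13:55530410-55536658 in GRCm38, gave 52 UMIs in WT and 24 in DKO erythroblasts, levels of 11.6 and 4.88. The log2 ratio of DKO over WT, with 1 count added to each, was −1.22 (exact conditional binomial 95% interval −2.01 to −0.53). Cgas, at chr9:78430526-78443237, gave 37 and 23 UMIs, levels of 8.25 and 4.67, a log2 ratio of −0.80 (−1.64 to −0.03). Both genes were lower in DKO cells. The levels in WT free RNA, 21.8 for Ddx41 and 14.6 for Cgas, were above those in WT erythroblasts, so these few UMIs are not read as expression, and the part of free RNA in them was not tested. The exons removed in the 2 alleles are not given in the sources used here, and a 3′ tag outside the removed part counts in either genotype, so the remaining UMIs do not check the deletion.

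Across the 5384 genes with a mean level of at least 20, most differed little between the libraries. The median log2 ratio was 0.05, and 205 genes (3.81%) were at least 1.5-fold higher and 294 (5.46%) at least 1.5-fold lower in DKO cells, 499 (9.27%) in all. The higher genes were 41.1% of these calls, and 51.7% when every cell was thinned to 3000 UMIs, where 432 genes were higher and 404 lower. Among genes with a mean level of at least 100, the 10 with the lowest ratios included the interferon-stimulated Isg15, Ifi27 and Ifitm3 and the histone gene Hist1h2ap. The 10 highest were led by Aim2, a receptor for DNA in the cytosol.

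**Figure D1:**
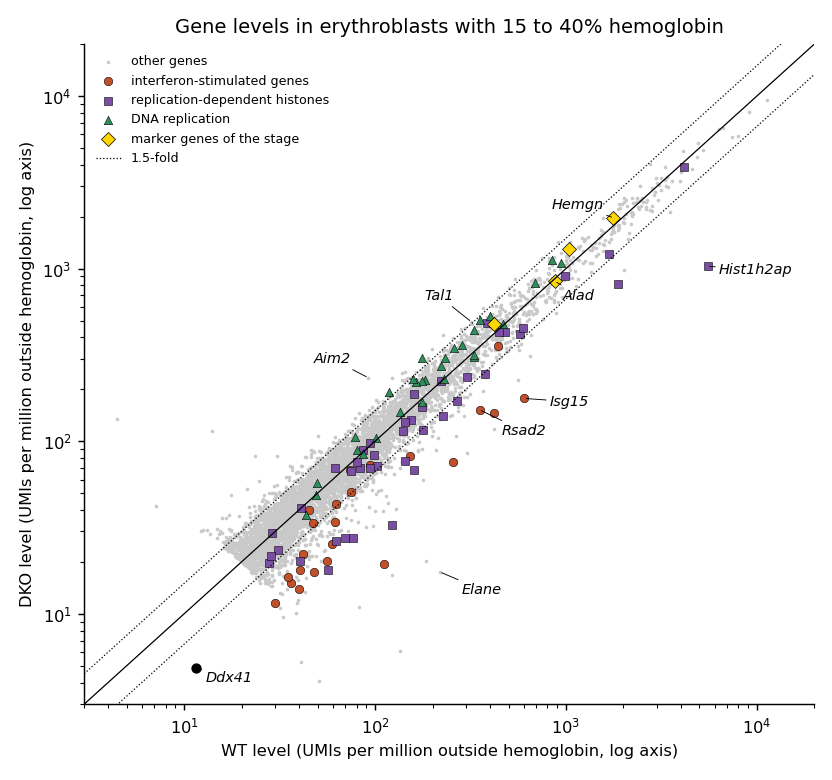
Level of each tested gene in the WT (horizontal) and DKO (vertical) library, in UMIs per 1000000 outside hemoglobin on log axes, with the line of equality solid and 1.5-fold dotted. Isg15 (606 and 177) and Hist1h2ap (5544 and 1031) lie far below equality, Aim2 (91.7 and 234) lies above it, and the markers Hemgn, Klf1, Cpox and Alad lie close to it.

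Of the 19 gene lists, that of the interferon-stimulated genes had the median farthest from 0, and its genes were lower in DKO erythroblasts. Of 43 listed genes, 23 had a mean level of at least 20 and 20 did not. The limit is on the mean of both libraries, so a gene can pass it through 1 library alone. None of the 23 was at least 1.5-fold higher and 16 were at least 1.5-fold lower, 69.6% against the 5.46% of all tested genes, and all 23 ratios were below 0. Their median log2 ratio was −1.18, where the median over all tested genes was 0.05. Without the 57 WT and 46 DKO cells in which the markers of 13 other cell types together passed 2% of the non-globin UMIs, 24 list genes were tested, 18 were lower and the median was −1.29. That step did not remove all foreign RNA. B cell markers were left at 402 in WT and 211 in DKO cells, monocyte markers at 286 and 185, and T or NK cell markers at 72.8 and 11.7. Their part in the difference was not tested.

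Isg15, a ubiquitin-like protein that is attached to other proteins after interferon exposure, gave 2717 UMIs in WT and 871 in DKO cells. Its level was 606 in WT and 177 in DKO cells, a log2 ratio of −1.78 (−1.89 to −1.67). In 5 windows of 5 percentage points of hemoglobin share, from 15 to 20% up to 35 to 40%, the WT level was 362, 353, 694, 646 and 1008, and the DKO level 70.2, 106, 196, 164 and 331. Every WT window lay above every DKO window, and in both libraries the level was highest in the window with the most hemoglobin. Isg15 was also unevenly spread: the 10% of cells with the most Isg15 held 65.6% of its WT and 78.4% of its DKO UMIs, where the 10% of cells with the most UMIs held 26.1 and 24.8% of all non-globin UMIs. WT droplets with free RNA stood at 214, between the WT and the DKO level.

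Ifi27, a small membrane protein of the mitochondria and nuclear envelope, stood at 255 in WT and 75.8 in DKO cells (log2 ratio −1.75, −1.92 to −1.58), with WT windows of 194 to 330.1 and DKO windows of 64.2 to 86.4. Ifitm3, which blocks virus entry at endosomes, stood at 418 and 146 (−1.52, −1.64 to −1.39). Its WT windows of 336 to 582 and DKO windows of 110.3 to 226 did not overlap either, and its level in WT free RNA was 400.0, close to that of WT erythroblasts. Rsad2 (viperin), an enzyme that makes a chain-terminating nucleotide, was chosen with its values known and stood at 353 and 152 (−1.21, −1.34 to −1.09), with WT windows of 194 to 484 that overlapped the DKO windows of 115 to 204.

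Ifi27l2a had the lowest ratio of the list, −2.50 (−2.85 to −2.20), with a level of 112 in WT and 19.5 in DKO cells. Its UMIs came from few cells, since the top 10% of cells held 98.2% of them in WT and 100% in DKO. The genes that transmit the interferon signal were lower too. Stat2 stood at 29.9 in WT and 11.6 in DKO cells (−1.35), and Irf7 at 39.9 and 14 (−1.50), while Irf9, at 62.7 and 43.5, did not reach 1.5-fold (−0.53). The DKO levels of Ifi27l2a, Stat2 and Irf7 were under 20, so these genes passed the level limit through the WT library. The immunoproteasome subunits Psmb8 (−1.45) and Psmb9 (−1.44) lay at the low end. Cmpk2 (−0.13, −0.35 to 0.10) and Uba7 (−0.18, −0.47 to 0.11), the enzyme that activates ISG15, differed by less than their counting intervals, and Ube2l6, which passes ISG15 on, stood at 439 and 355 (−0.31, −0.40 to −0.21).

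**Figure D2:**
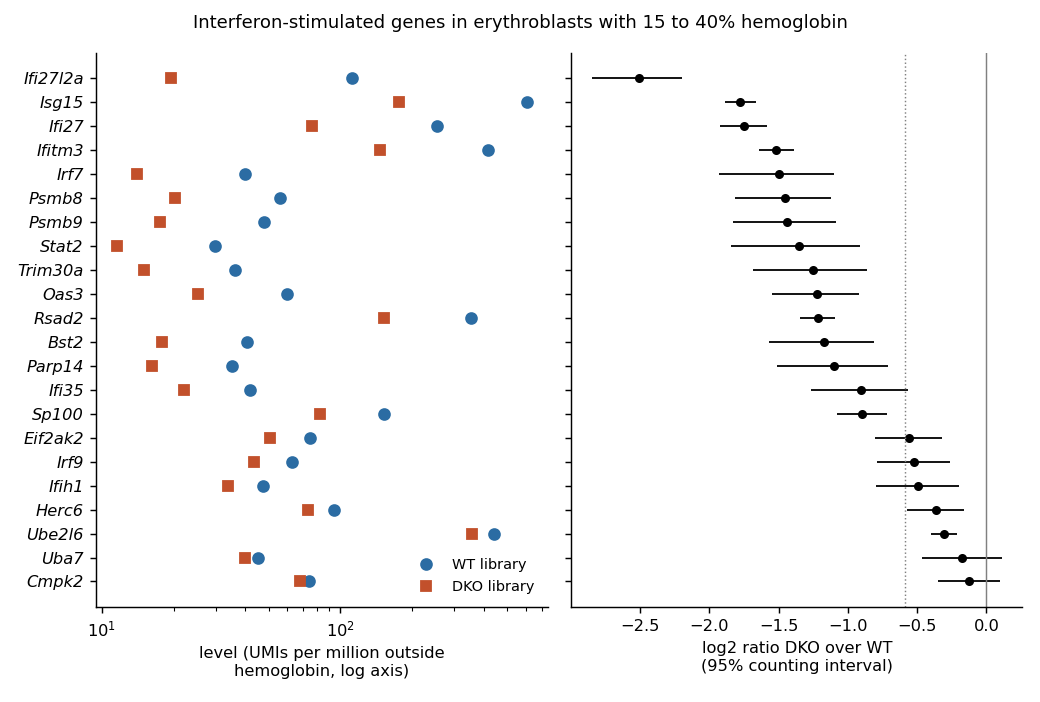
Left, level of 22 of the 23 tested interferon-stimulated genes in the WT and DKO library, in UMIs per 1000000 outside hemoglobin on a log axis. Right, the log2 ratio of DKO over WT with its 95% counting interval, from −2.50 (Ifi27l2a) to −0.13 (Cmpk2), with a dotted line at 1.5-fold lower.

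The promoters of 4 of these genes are printed to show the letters of the interferon-stimulated response element, the site of a complex that holds STAT2 and IRF9, beside the size of the difference. Its core was searched on both strands as GAAA, any 2 bases and GAAA again (or the reverse complement TTTC, any 2 bases, TTTC), overlaps allowed, and capitals mark each match. Of all promoters of this length, 3.44% hold it (3.99% of genes). Of the 23 tested list genes 19 had a RefSeq entry, and 9 of these (47.4%) held it.
Isg15, chr4:156200769-156201068, minus strand: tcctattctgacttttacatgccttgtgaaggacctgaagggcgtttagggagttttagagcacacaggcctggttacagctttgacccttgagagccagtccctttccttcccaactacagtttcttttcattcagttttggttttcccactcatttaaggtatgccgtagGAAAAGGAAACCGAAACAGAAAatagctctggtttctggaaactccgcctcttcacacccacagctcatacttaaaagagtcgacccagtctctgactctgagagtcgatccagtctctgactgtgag
Ifitm3, chr7:141010695-141010994, minus strand: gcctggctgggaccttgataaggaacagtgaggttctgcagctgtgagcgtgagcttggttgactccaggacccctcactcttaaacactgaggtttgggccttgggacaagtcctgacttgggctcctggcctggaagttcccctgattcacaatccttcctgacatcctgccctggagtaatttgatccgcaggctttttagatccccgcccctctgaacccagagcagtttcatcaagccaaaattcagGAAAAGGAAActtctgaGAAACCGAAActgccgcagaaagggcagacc
Rsad2, chr12:26456403-26456702, minus strand: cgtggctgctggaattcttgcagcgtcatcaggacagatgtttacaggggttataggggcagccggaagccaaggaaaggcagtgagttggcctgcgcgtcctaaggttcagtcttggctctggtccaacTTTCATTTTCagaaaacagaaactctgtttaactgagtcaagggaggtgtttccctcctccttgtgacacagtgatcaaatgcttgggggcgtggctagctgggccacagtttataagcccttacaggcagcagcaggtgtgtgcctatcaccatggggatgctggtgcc
Ube2l6, chr2:84798578-84798877, plus strand: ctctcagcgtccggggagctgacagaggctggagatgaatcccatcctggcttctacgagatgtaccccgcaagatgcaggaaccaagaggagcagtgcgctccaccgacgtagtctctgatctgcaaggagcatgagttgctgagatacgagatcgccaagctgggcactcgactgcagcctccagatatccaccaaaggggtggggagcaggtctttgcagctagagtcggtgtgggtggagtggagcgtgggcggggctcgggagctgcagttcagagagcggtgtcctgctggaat
Isg15 holds 3 overlapping matches, the first 78 and the last 66 bases before the start site. Ifitm3 holds 2, beginning 2 and 19 bases after it, and Rsad2 holds 1, beginning 120 bases before it. No match lies in the Ube2l6 window, nor in those of Irf7, Irf9, Psmb8, Psmb9, Sp100, Ifi35, Herc6, Uba7 and Cmpk2, which hold both some of the largest and some of the smallest differences.

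Genes of antigen presentation, chosen with their values known, were also lower in DKO cells. H2-K1, a class I heavy chain, stood at 214 in WT and 104 in DKO cells (−1.04), H2-D1 at 304.5 and 181 (−0.75), and B2m, their shared light chain, at 655 and 412 (−0.67). In WT free RNA they stood higher than in WT erythroblasts, at 878, 511 and 825.5, and the part of free RNA in these differences was not tested. All 3 were lower in 5 of 5 hemoglobin windows, as were 13.1% of tested genes. The windows split the same UMIs as the ratios, so they are not a separate check. The class II genes Cd74, at 420.3 and 117.2 (−1.84), and H2-Aa, at 178 and 59.5 (−1.58), were among the 10 lowest, but the top 10% of cells held 98.8% or more of their UMIs in either library. B cell markers, whose cells express class II, summed to 388 in WT and 221 in DKO cells and to 555 in WT free RNA, and their part in these differences was not tested.

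Not every gene tied to DNA sensing was lower. Aim2, a receptor for DNA in the cytosol, gave 411 UMIs in WT and 1151 in DKO cells, levels of 91.7 and 234 (log2 ratio 1.35, 1.19 to 1.52). Its WT windows of 69.3 to 103 all lay below its DKO windows of 206 to 266. It was higher in 5 of 5 windows, as were 20% of tested genes. The next highest were Tbcd, a tubulin folding cofactor, at 123 in WT and 232 in DKO cells (0.91), and Pbx3, a homeodomain factor, at 226 and 414 (0.87). Mboat2, a lipid acyltransferase, stood at 138 and 248 (0.85), Rfx2, a transcription factor, at 82.3 and 145 (0.81), and Agtr1a, an angiotensin receptor, at 143 and 250.1 (0.80). Arhgap21, a GTPase regulator, stood at 79.0 and 135.5 (0.78). All of these, with Hk1 and Ccne2 described below, were higher in 5 of 5 windows. The windows split the same UMIs as the ratios that chose these genes, so they are not a separate check. Without the cells over 2% in markers of other types, Ccne2 gave way to Cox6b2 (0.74) and the other 9 remained among the 10 highest, Aim2 with a ratio of 1.37. On the same strand, Agtr1a and Arhgap21 overlap the gene models Gm48161 and Gm13380, so their counts are less certain. Aim2, Tbcd, Pbx3, Mboat2, Hk1 and Ccne2, and Ddx41 and Cpox above, overlap a gene on the opposite strand, and whether counting used strand is not given in the sources used here.

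Ribosomal protein genes were close to equal in the 2 libraries at this stage. All 32 tested genes of the small ribosomal subunit, and 46 of 47 of the large, were within 1.5-fold, with list medians of 0.07 and −0.05. Of all tested genes, 9.27% were past 1.5-fold.

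Genes of the replication-dependent histones, which package new DNA and are expressed in S phase, were lower in DKO cells as a list. Of 59 listed genes 43 were tested. None was at least 1.5-fold higher and 14 were lower (32.6%, against 5.46% of all tested genes), with 37 ratios below 0 and a median of −0.39. The list was not shifted evenly over the range. By window, from the least hemoglobin to the most, its median ratio was −0.45, −0.08, −0.10, −0.62 and −0.54. Hist1h2ap, an H2A gene, stood at 5544 in WT and 1031 in DKO cells (−2.43, −2.47 to −2.38). Its WT windows of 4185 to 7444 did not overlap its DKO windows of 712 to 1333. Hist1h3b, at 123 and 32.9 (−1.90), Hist1h2br, at 56.4 and 17.9 (−1.65), and Hist1h4n, at 76.7 and 27.4 (−1.48), followed. The DKO level of Hist1h2br was under 20, so it passed the level limit through the WT library. Other members of the same family hardly differed: the linker histone Hist1h1b stood at 4164 and 3882 (−0.10) and Hist1h4d at 983 and 907 (−0.12), while Hist2h2ac was at 384 and 485.5 (0.34). Many of these genes share long stretches of sequence, and most of their messages lack the poly(A) tail that a 3′ method primes on, so single values are uncertain. H2afx, the H2A variant phosphorylated at DNA breaks, stood at 753 and 508 (−0.57).

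The genes that copy DNA had a median ratio above 0 but few past 1.5-fold. Of 31 DNA replication genes 30 were tested, 2 were at least 1.5-fold higher (6.67%, near the 3.81% of all tested genes) and none lower, and 23 ratios were above 0 with a median of 0.28. Ccne2, the cyclin E2 that starts S phase, stood at 175 in WT and 302 in DKO cells (0.78, 0.66 to 0.91), and Cdt1, which loads the MCM helicase on origins, at 118 and 194 (0.71, 0.56 to 0.87). Slbp, which binds the stem-loop of histone messages, stood at 689 and 826 (0.26). The 28 mitosis genes had a median of 0.03 with none past 1.5-fold, against 9.27% of all tested genes. Within them, Mki67, the proliferation antigen, stood at 2023 and 2440.2 (0.27), and Ube2c, a ubiquitin conjugase of the anaphase promoting complex, at 2141 and 1605 (−0.42). The 24 tested DNA damage, R-loop and G-quadruplex genes also had none past 1.5-fold, with a median of 0.14.

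**Figure D3:**
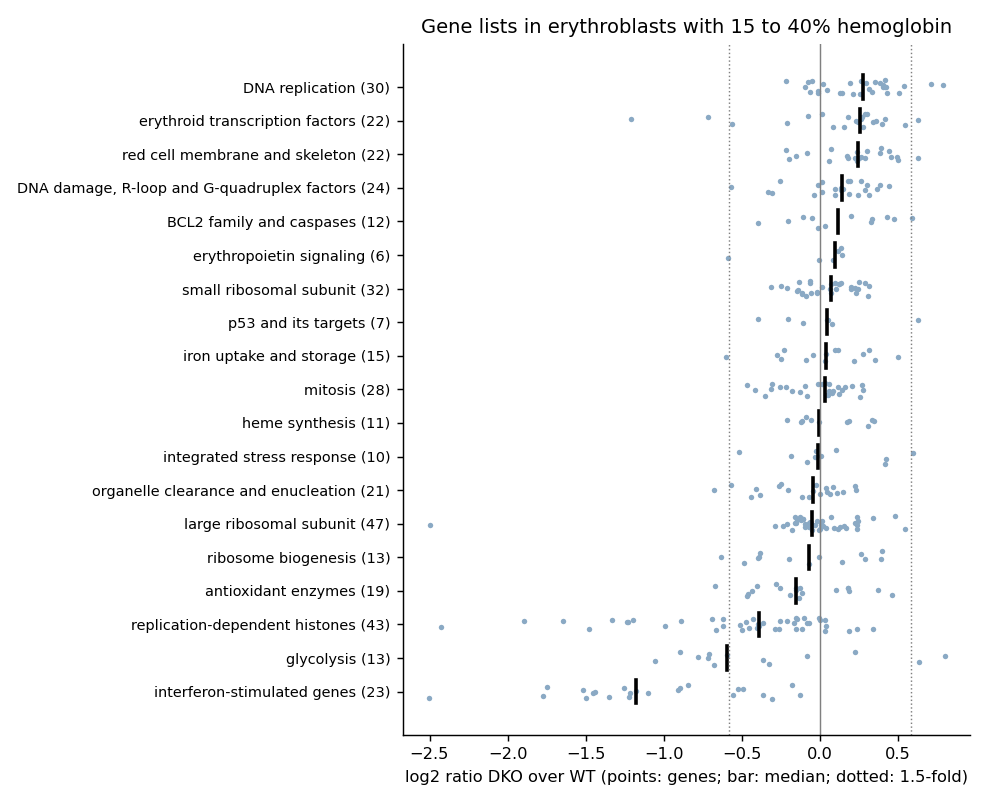
Log2 ratio of DKO over WT for the tested genes of 19 gene lists, 1 point a gene, with the list's median as a bar, the number of tested genes in parentheses and 1.5-fold as dotted lines. The interferon-stimulated genes have the lowest median (−1.18), followed by glycolysis (−0.60) and the histones (−0.39), and the DNA replication genes have the highest (0.28).

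Most red cell genes were within 1.5-fold in the 2 libraries, as were most of all tested genes, of which 9.27% were past it. All 11 heme synthesis genes were within 1.5-fold, from Urod at 621 in WT and 535 in DKO cells (−0.21) to Uros at 179 and 228 (0.35), with a median of −0.00. Alas2, the rate-limiting enzyme of erythroid heme synthesis, stood at 1140.4 and 1137. Of 22 red cell membrane and skeleton genes, Add2 (beta-adducin) was at least 1.5-fold higher, at 149.7 and 232 (0.63), and none was lower. That is 4.55% higher, near the 3.81% of all tested genes. 18 of the 22 ratios were above 0 and the median was 0.24: Ank1 (ankyrin) stood at 1045 and 1429 (0.45), and Kel at 504 and 712 (0.50). Rhd, at 1720.5 and 1480.2 (−0.22), lay below 0. Among 15 tested iron genes, Iscu, the scaffold for iron-sulfur clusters, was at least 1.5-fold lower at 135.0 and 88.8 (−0.60), and Tfrc was highest (0.50, 0.44 to 0.56).

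Of 24 erythroid transcription factors 22 were tested. Tal1, a partner of GATA1, stood at 318 in WT and 493 in DKO cells (0.63, 0.54 to 0.73), and in windows from 249.7 to 399.7 in WT and from 357 to 614 in DKO. Cbfa2t3, a corepressor in the TAL1 complex, was at least 1.5-fold lower at 43.9 and 18.9 (−1.21), as was Myb, a factor of proliferating progenitors, at 30.8 and 18.7 (−0.71). The top 10% of cells held 76.6 and 100% of the Cbfa2t3 UMIs and 100 and 100% of those of Myb, at 92 to 197 UMIs a gene. Low counts raise such shares but do not fix them. The shares were 79.8 and 55.5% for Casp9 (99 and 164 UMIs) and 93.9 and 100% for Eno1 (148 and 94). Cbfa2t3 and Myb had DKO levels under 20, so they passed the level limit through the WT library. Gata1 stood at 206 and 244 (0.24). The erythropoietin signaling list had 6 tested genes, of which only Ptpn6, the phosphatase that shuts off the receptor, was past 1.5-fold, at 46.6 and 30.9 (−0.59). The top 10% of cells held 86.6 and 94.1% of the Ptpn6 UMIs. In WT free RNA Ptpn6 stood at 121, Myb at 109 and Cbfa2t3 at 55.7, each above its level in WT erythroblasts. The part of free RNA in these differences was not tested.

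The make-up of hemoglobin message differed between the libraries, although its share was fixed by the choice of cells. Hba-a1 made up 19.9% of globin UMIs in WT and 23.8% in DKO cells, and both alpha genes together 30% and 34.6%. Beta over alpha UMIs were 2.33 in WT and 1.89 in DKO cells. The 5 WT windows lay between 2.32 and 2.36 and the 5 DKO windows between 1.88 and 1.92, so the offset was present at every hemoglobin share, and the cells under 15% (2.37 and 1.99) and from 40 to 75% (2.18 and 1.77) showed it too. Within the beta genes, Hbb-bt over Hbb-bs was instead alike and lower with more hemoglobin, from 0.407 to 0.359 in WT and from 0.401 to 0.355 in DKO. Hba-a1 and Hba-a2, and Hbb-bs and Hbb-bt, are near-identical copies, so the split within each pair depends on how reads were assigned, and the sum over a pair less so. Hbq1b, a theta globin chosen with its values known, stood at 290.2 and 163 (−0.83). Embryonic globins were near 0, with 10 and 5 UMIs of Hba-x and 6 and 8 of Hbb-y in all WT and DKO cells.

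**Figure D4:**
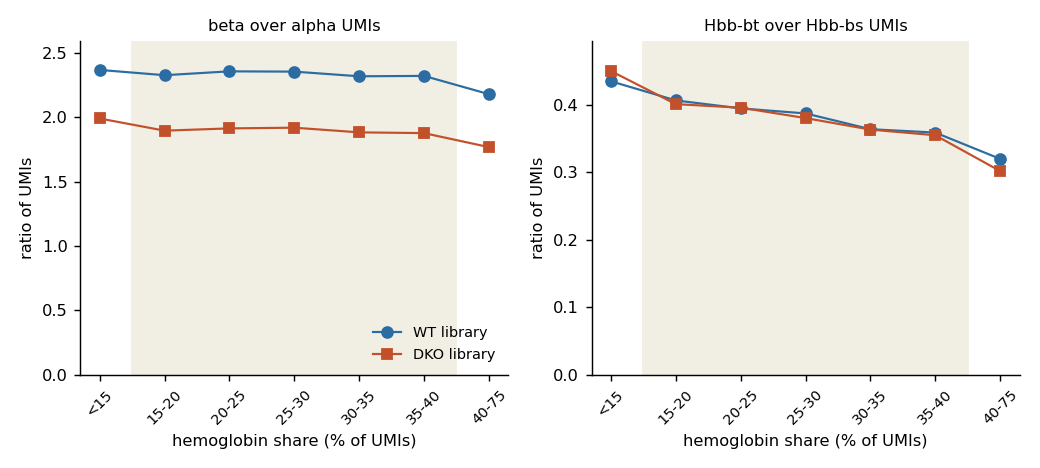
Beta over alpha globin UMIs (left) and Hbb-bt over Hbb-bs UMIs (right) by hemoglobin share in percent of UMIs, for the WT and DKO library, with the 15 to 40% cells shaded. The WT library lies above the DKO library throughout on the left (2.33 against 1.89 over the shaded cells), and the 2 libraries nearly coincide on the right.

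Sugar and stress genes gave mixed values. Of 18 glycolysis genes 13 were tested, 7 were at least 1.5-fold lower (53.8%, against 5.46% of all tested genes), 2 higher (15.4%, against 3.81%), and the median was −0.60. Bpgm, which makes the 2,3-bisphosphoglycerate that loosens oxygen from hemoglobin, stood at 366 in WT and 196 in DKO cells (−0.90, −1.01 to −0.78), and Pgam1 at 60.2 and 28.8 (−1.06). The top 10% of cells held 70.9 and 70.1% of the Bpgm UMIs and 91.1 and 95.8% of those of Pgam1. Hk1, the first enzyme of the pathway, stood at 198 and 344 (0.80, 0.68 to 0.92), and Pfkm at 20.3 and 31.7 (0.64). In WT free RNA Bpgm stood at 521 and Pgam1 at 158, above their levels in WT erythroblasts. Hk1 stood at 103 there, below its level in WT erythroblasts. The part of free RNA in these differences was not tested. The list did not move evenly along maturation: its median ratio was −1.33 in the 25 to 30% window and 0.32 in the 30 to 35% window. Restricted to its 4 genes with a mean level of at least 100, the median was 0.071. Gapdh stood at 302 and 285 (−0.08). Eno1, among the lower genes at 33.0 and 19.1 (−0.78), had a DKO level under 20 and passed the level limit through the WT library.

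The lists for p53 targets (7 tested), the BCL2 family and caspases (12) and the integrated stress response (10) had medians of 0.04, 0.11 and −0.01. Each had 1 gene at least 1.5-fold higher (14.3, 8.33 and 10%, against 3.81% of all tested genes) and none lower. They were Polk, a DNA polymerase that copies past damage, at 17.2 and 26.6 (0.62), Casp9, the initiator caspase of the mitochondrial pathway, at 22.1 and 33.3 (0.59), and Aars, a tRNA synthetase, at 70.3 and 106 (0.60). A single gene is not read as a result about its list, and Polk passed the level limit through the DKO library. Nop10, of the ribosome biogenesis list, was lower at 72.5 and 46.7 (−0.63), Gabarapl2, an autophagosome protein of the organelle clearance list, at 378 and 236 (−0.68), and Hmox1, the heme oxygenase of the antioxidant list, at 35.7 and 22.3 (−0.67). The medians of those 3 lists were −0.07, −0.04 and −0.15. In WT free RNA Hmox1 stood at 350 and Nop10 at 163, above their levels in WT erythroblasts. Gabarapl2 stood at 217 there, below its level in WT erythroblasts. The top 10% of cells held 92.5 and 99.1% of the Hmox1 UMIs, and Hmox1 was lower in 3 of 5 windows. The part of free RNA in these 3 differences was not tested.

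Within the 15 to 40% range the levels of some genes changed with hemoglobin share in both libraries. Between the 15 to 20% and the 35 to 40% window, 7.5% of tested genes were at least 1.5-fold higher in both libraries and 11.4% lower. Such counts require the same direction in both libraries, so they do not show how often direction was shared. Ifi27l2a, for one, changed by −1.34 log2 units in WT and by 1.34 in DKO. The summed level of the 11 heme synthesis genes went from 7652 to 11489 in WT and from 7584 to 11399.9 in DKO, with 6 genes at least 1.5-fold higher in both. Of the 22 membrane and skeleton genes 13 were higher, and their sum went from 12157 to 22150.2 in WT and from 13501 to 22946 in DKO. Ribosomal proteins went the other way: 21 of 32 small subunit genes and 30 of 47 large subunit genes were at least 1.5-fold lower in both, and the small subunit sum went from 83282 to 47629 in WT and from 85874 to 53562 in DKO. Ribosome biogenesis (7 of 13 lower) and glycolysis (10 of 13 lower) followed them. The windows are steps of the measure that chose the cells, so this is a description of the range, not a test.

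Of the histones 33 of 43 genes were at least 1.5-fold higher in the top window in both libraries, with sums from 16817 to 28373 in WT and from 9746 to 16506 in DKO. Hist1h2ap alone made up 4476 and 7444 of these WT sums and 712 and 1333 of these DKO sums. The DNA replication genes did not follow them, with none higher and 3 of 30 lower. For interferon-stimulated genes 8 of 23 were higher in both and none lower, with sums from 2402 to 4282 in WT and from 1285 to 2019.9 in DKO. The highest DKO window of that sum lay below the lowest WT window, and the median ratio ran from −0.62 in the first window to −1.44 in the third. Single genes with large gains in both libraries were Isg15, Fzr1 (an activator of the anaphase promoting complex), Ppp1r15a (a phosphatase subunit that ends the integrated stress response) and Ptp4a3. Fzr1 was 1.39 log2 units higher in either library, Ppp1r15a 1.29 in either, and Ptp4a3 1.29 in WT and 1.38 in DKO. Nme1 (−2.43 in WT and −1.85 in DKO), the prolyl isomerase gene Ppia (−1.49 and −1.50), the glycolytic Gapdh (−1.69 and −1.39) and the chaperone gene Hsp90ab1 (−1.38 and −1.67) had the largest losses among genes with a mean level of at least 100, beside the neutrophil and progenitor genes named below.

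**Figure D5:**
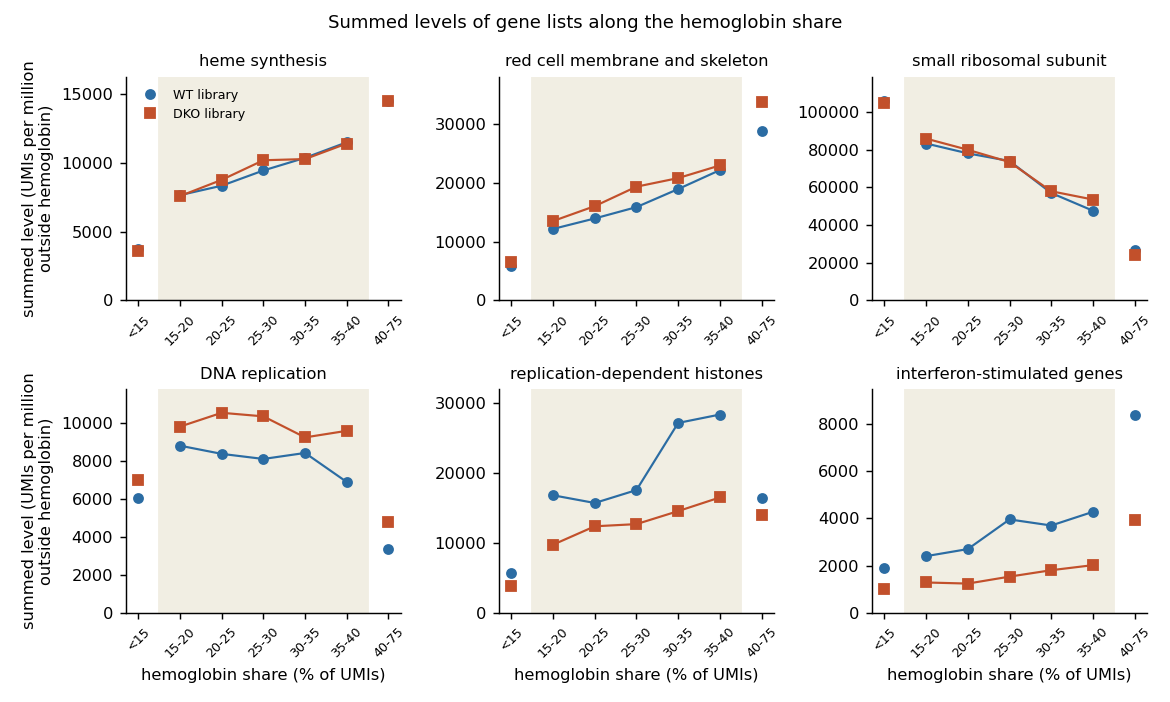
Summed level of 6 gene lists, in UMIs per 1000000 outside hemoglobin, by hemoglobin share in percent of UMIs, for the WT and DKO library, with the 15 to 40% cells shaded and joined by lines. Heme synthesis and membrane genes climb and ribosomal genes decline alike in both libraries, while interferon-stimulated genes (2402 to 4282 in WT, 1285 to 2019.9 in DKO) and histones lie lower in the DKO library in every shaded window. In the 20 to 25% window Hist1h2ap alone made up 4185 of 15714 in WT and 952 of 12378 in DKO. The median histone ratio there was −0.08.

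Compared with the 897 WT and 611 DKO erythroblasts chosen in the same way with under 15% hemoglobin, 19.2% of tested genes were at least 1.5-fold higher in both libraries and 17.1% lower. Against the 1224 and 1221 with 40 to 75%, 37.6% were higher and 9.84% lower. All 43 tested histones, all 11 heme genes and 21 of 22 membrane genes were higher than in the less hemoglobinized cells. Of the 30 DNA replication genes 26, and of the ribosomal proteins 31 of 32 and 46 of 47, were higher than in the more hemoglobinized cells. Of the membrane genes 12 were lower than there. The stages are cuts of 1 gradient and share their libraries, so these are descriptions too.

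Some genes had higher levels here than at either neighbouring stage in both libraries. Among genes with a mean level of at least 100, the widest margins were those of Tac2, Slbp, Zfp367, Bach2, Hist1h1a, Cdc42ep3, Ccdc82 and Usp49. Tac2, the neurokinin B precursor, stood at 139.7 in WT and 101 in DKO cells, at 50.1 and 43.4 before and at 38.7 and 20.9 after. Slbp stood at 689 and 826, against 358 and 426 before and 303 and 416 after. Cdc42ep3, an effector of the GTPase CDC42, stood at 341 and 462, against 163 and 170 before and 202 and 273 after. The top 10% of cells held 98.6 and 100% of the Bach2 UMIs, so its peak rests on few cells.

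The interferon-stimulated genes were lower in the DKO library at the neighbouring stages as well, with list medians of −0.78 under 15%, −1.18 here and −1.10 from 40 to 75%. Isg15 stood at 87.0 in WT and 19.7 in DKO cells under 15%, and at 2508 and 884 from 40 to 75%. The histone median was −0.28 before and 0.12 after, so the list no longer leaned below 0 among the more hemoglobinized cells, although Hist1h2ap was still at 4509 in WT and 1178 in DKO there. Whether these differences between stages exceed the spread between mice was not tested.

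Markers of other cell types were present and moved with some of the lowest and highest genes. Of the 13 other marker lists, neutrophil genes were the largest, at 22069 in WT and 20787 in DKO cells, led by S100a9 (9039 and 8037), S100a8 (6346 and 6448) and Camp (2889 and 2679). They lay in few cells: 51 WT and 44 DKO cells had over 2% of their non-globin UMIs in neutrophil markers, and without the 57 and 46 cells over 2% for all 13 lists together the sums were 976 and 621. WT free RNA held 36203. Markers of granulocyte-monocyte progenitors stood at 624 in WT and 86.7 in DKO cells (129 and 46.1 without those cells, 2694 in WT free RNA).

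Elane, at 219 and 17.5 (−3.63), and Prtn3, at 186 and 20.1 (−3.20), are neutrophil granule proteases and had the lowest ratios among genes with a mean level of at least 100, with 94.5 to 100% of their UMIs in the top 10% of cells. Without the cells holding other markers they left the 10 lowest, and Sh3bgrl3 (−1.45) and Igkc (−1.44) took their place. Plac8 (−1.82, or −1.90 without those cells) was also held by few cells, with 91.9 and 96.7% of its UMIs in the top 10%. Megakaryocyte and platelet markers stood at 271 in WT and 44.1 in DKO cells and at 2172 in WT free RNA, with the platelet gene Ppbp at 607 and 30 UMIs. Basophil or mast markers stood at 15.2 and 312 (13.7 and 1.17 without those cells), with Mcpt8 at 20 and 661 UMIs and Prss34 at 4 and 746. These 3 genes were named after their values were seen. The part that whole cells of other types sharing a droplet, or free RNA, took in each result was not tested beyond these values. The remaining lists (monocyte, macrophage, B cell, plasma cell, T or NK cell, dendritic cell, stem or early progenitor, stromal and endothelial) lay between 4.88 and 388 in either library. Bst2 is both on the dendritic cell list and among the interferon-stimulated genes.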

How the data were processed

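Marrow was flushed from the femurs of 1 mouse per genotype and loaded on a Chromium 3′ v3 chip. Per the file headers, the authors made the deposited raw UMI counts with Cell Ranger 7.1.0, and the submitters' notes name mm10. Annotation release and intron counting are not given in the sources used here. Gene positions are from GENCODE M21, which held 32158 of 32285 identifiers.

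Counts were summed over members per library and scaled to 1000000 UMIs outside the 4 globin genes. Ratios had 1 count added, and intervals are exact conditional binomial. Genes with a mean level of 20 were compared and 1.5-fold was called, with no p-value at 1 library a genotype. Members, lists and markers were chosen with earlier results of these data known. Genes named are those of Ddx41 and Cgas, the markers, the 10 extremes each way at a mean level of 100, up to 4 called genes a list (otherwise its 2 most abundant), the 8 largest changes each way along hemoglobin share, the 8 clearest peaks and the 3 highest foreign markers, and others are said to be chosen with values known. Scrublet scores at the DKO library's threshold (0.228) marked 64 WT and 55 DKO members; the WT library's own threshold (0.637) marked none. Doublets were kept, and dropped in an alternative. The ratio and its interval were tested on simulated data. The tools were scipy 1.17.1 and numpy 2.4.6 for intervals, pandas 2.3.3, scanpy 1.11.5 for Scrublet, and matplotlib 3.10.9, in Python 3.11.15. Some genes that the naming rule takes are not reported here.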

Additional observations from a re-analysis of the deposited data

How the results depend on the processing

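No paired analysis was possible because each genotype is 1 library. Leaving out a replicate was not possible for the same reason. Over all alternatives of the values that answer a comparison, 266 values held, 19 moved beyond their counting interval or by over 1.5 times, and 1 turned direction. The cause of each move was not tested. With hemoglobin limited to 20 to 35%, the medians were 0.12 for mitosis, −0.082 for the large ribosomal subunit and −0.47 for ribosome biogenesis. Thinned to 3000 UMIs a cell, 432 genes were higher in DKO and the large ribosomal median was −0.10. With a mean level of at least 100, 55 genes were higher and 69 lower, and the glycolysis median turned to 0.071 with 4 genes left. With no filter on level, 3311 were higher and 3838 lower. The members as percent of barcodes kept were 3.85% in WT at 2000 UMIs or more (612 of 15881, beside 439 of 12263 in DKO). At 20 to 35% hemoglobin they were 2.17% in WT and 2.02% in DKO, at 6 or more UMIs of the 5 genes 3.15 and 3.30%, without doublets 3.31 and 3.29%, and without cells holding other markers 3.29 and 3.31%. The last combined with 2000 UMIs, an alternative chosen after seeing the data, gave 3.21% in DKO. The interferon median ran from −1.37 to −0.92 and the histone median from −0.48 to −0.34 over their 12 alternatives. Without cells holding other markers, 143 of the 205 higher and 220 of the 294 lower genes were called again. With 1 mouse a genotype, the spread between mice is unknown, and genes with a mean level under 20 were not compared.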
